A study of Mus musculus with 105 samples.

Results

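The genes described here are Sox1, Pax6, Nes, Neurod1, Hes5, Zic1 and Sox11, 7 genes of the neural lineage listed by name out of 52016 in each bulk count table and 34120 in the single-cell count table. They were followed over days 0 to 4 of differentiation in female mouse embryonic stem cells (mESCs), in order to describe when each gene came up, in what share of cells, and whether the cell lines differed. TX1072 (clone A3) is an F1 hybrid line of the strains C57BL/6 (B6) and CAST/EiJ (Cast), with a doxycycline-responsive promoter in front of Xist on the B6 X chromosome and rtTA inserted at Rosa26. The lines dXicB6 (clone A1) and dXicCast (clone A6) were made from TX1072, each is 1 clone, and each lacks a region around Xist, on the B6 or on the Cast X chromosome respectively; both keep the modifications of TX1072. In every group, day 0 cells were in serum medium with the 2i inhibitors and Lif, and days 1, 2, 3 and 4 followed 2i/Lif withdrawal into serum medium on fibronectin, with no neural inducer named. Bulk RNA-seq covered 3 replicates per line and day, 15 libraries of TX1072 and 30 of the deletion lines, and each replicate was differentiated on a different day. Single TX1072 cells were captured on a C1-HT chip from 1 culture per day, and 1472 of 2000 capture sites were retained. Bulk replicate 1 of TX1072 came from the same cell population as the single cells, per the study's methods.

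In vertebrate embryos the neural lineage begins when ectoderm takes on neuroepithelial fate, which Sox and Pax transcription factors mark. Neural progenitors carry the intermediate filament nestin and use Notch signaling, read out through Hes genes, to hold back differentiation, whereas proneural bHLH factors drive cells towards neurons. Several of these genes are also used outside the nervous system and in the early epiblast, so that a transcript of a single gene does not define a neural cell. Sox1 is an early marker of neuroectoderm, and Sox11 is a SoxC factor of progenitors and young neurons. Pax6 is a paired-box factor of the forebrain, spinal cord and eye, and Zic1 is a zinc finger factor of the dorsal neural tube. Neurod1 is a proneural bHLH factor, Nes encodes nestin, and Hes5 encodes a Notch effector.

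The promoters of Sox11, Pax6 and Hes5 are shown because these genes stand for 3 outcomes in the bulk libraries, a rise that lasted, a rise that was partly lost and a level near 0. Each run is the 250 bases before the start site on the gene's own strand, from the RefSeq annotation of GRCm38.p6, at chr12:27342719-27342968 (minus strand), chr2:105668646-105668895 (plus strand) and chr4:154960673-154960922 (plus strand). Capitals mark the E-box CANNTG, the motif bound by bHLH proteins, which reads as the same motif on both strands.
Sox11: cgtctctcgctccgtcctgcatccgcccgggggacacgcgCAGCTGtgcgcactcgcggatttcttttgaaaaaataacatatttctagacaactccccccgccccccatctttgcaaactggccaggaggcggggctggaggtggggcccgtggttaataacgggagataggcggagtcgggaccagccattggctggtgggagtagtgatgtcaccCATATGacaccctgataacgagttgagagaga
Pax6: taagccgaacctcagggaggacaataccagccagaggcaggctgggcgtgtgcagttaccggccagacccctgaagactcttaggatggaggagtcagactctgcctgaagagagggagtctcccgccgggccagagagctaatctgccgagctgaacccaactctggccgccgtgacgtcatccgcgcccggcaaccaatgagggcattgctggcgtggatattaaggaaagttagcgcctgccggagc
Hes5: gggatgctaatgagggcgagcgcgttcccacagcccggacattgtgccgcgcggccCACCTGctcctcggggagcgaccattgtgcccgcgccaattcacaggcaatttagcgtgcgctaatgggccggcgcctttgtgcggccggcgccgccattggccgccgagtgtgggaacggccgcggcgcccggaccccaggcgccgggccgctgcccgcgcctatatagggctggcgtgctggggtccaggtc
Sox11 held 2 E-boxes, Hes5 held 1, and the Pax6 window shown held 0. RefSeq lists 2 promoters for Pax6, and its other window, at chr2:105682213-105682462 (plus strand), held 1. An E-box was present in 66.2% of 32851 promoter windows of that length, so its presence here is common. The windows held 17, 15 and 32 CpG dinucleotides, respectively, against a median of 6, and the Hes5 window held more than 95.4% of all windows. The motif TATAAA was in 0 of these windows and in 12.4% of all windows.

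In GRCm38, Sox1 is a single-exon gene on chromosome 8 (12395295 to 12400126, plus strand), and Sox11 is a single-exon gene on chromosome 12 (27334264 to 27342574, minus strand). Pax6 lies on chromosome 2 (105668900 to 105697364, plus strand), as does Neurod1 (79452521 to 79456751, minus strand). Nes lies on chromosome 3 (87971078 to 87980451, plus strand), Hes5 on chromosome 4 (154960923 to 154962371, plus strand) and Zic1 on chromosome 9 (91358058 to 91365810, minus strand). Several members overlap another annotated gene. Reads from a stretch shared by genes on the same strand cannot be told apart under any strand setting of the counting. For genes on opposite strands this depends on that setting, which is not given in the sources used here. The lncRNA Sox1ot, which spans Sox1 on the same strand, had 1 to 12 counts per TX1072 library and 1 to 18 per library of the deletion lines. Zic4, which overlaps Zic1 on the opposite strand, had 0 to 6 and 0 to 21, and Pax6os1 had 0 and 0 to 2. Cerkl, which overlaps Neurod1 on the same strand, had 5 to 21 counts in TX1072 and 6 to 38 in the deletion lines. On day 0 it had 15 to 34 counts in dXicCast, more than the 5 to 7 counts of Neurod1 itself, so the day 0 level of Neurod1 is uncertain. Gm26755, a lncRNA opposite Neurod1, was not analysed here.

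Bulk libraries held 19827011 to 39628784 counts in TX1072, 20246434 to 49962859 in dXicB6 and 16906263 to 57920260 in dXicCast. Retained cells had a median of 124651 to 171158 UMIs per day, the highest on day 4. The labels give each capture column of day 1, and of no other day, an additional sequencing run named RapidRun. The single-cell counts of day 1 do not separate these runs, so a run effect cannot be told apart from that day. Levels are given as CPM, counts scaled to a library of 1000000 counts, after TMM scaling on autosomal genes, as the mean ± SD of 3 libraries. The day 0 RNA of dXicCast was degraded, which the depositors' notes state, and its libraries were fragmented more mildly. The day 0 values of that line and every change from them carry this limit. The 3 lines carried pluripotency transcripts on day 0, with Nanog at 1081 ± 171 CPM in TX1072, 1075 ± 81.7 CPM in dXicB6 and 858 ± 52.2 CPM in dXicCast. In TX1072, Nanog was lowest on day 2, at 54.9 ± 10.2 CPM, and was at 131 ± 28.6 CPM on day 3 and 222 ± 22.5 CPM on day 4.

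The first question was when each gene came up in TX1072. On day 1, Sox11, Pax6 and Neurod1 had risen and Nes had fallen, and Zic1 joined the rising genes on day 2. Of the 6 members that passed the filter on low counts, 4 changed on day 1 against day 0, where 47.0% of all 18871 genes tested did. On day 2, 5 changed (background 56.1%), on day 3, 5 changed (background 56.1%), and on day 4 all 6 tested changed (background 59.7%). Hes5 did not pass the filter. Changes past the adjusted p threshold of 0.05 were thus common in the whole transcriptome, so the genes are described by their sizes and directions.

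From day 1 on, Sox11 showed the largest level of the transcription factors in the set. Its CPM in the 3 TX1072 libraries were 2.57, 2.73 and 2.25 on day 0 and 34.7, 22.8 and 25.3 on day 1. The groups did not overlap, and every day 1 library was several times above every day 0 library. The rise on day 1 was 10.9-fold (log2 fold change 3.45, SE 0.24, adjusted p = 2.38e-09 in edgeR's quasi-likelihood test). Sox11 then went from 27.6 ± 6.32 CPM on day 1 through 30.9 ± 10.8 and 48.7 ± 4.15 to 54.5 ± 10.4 CPM on day 4, 21.5-fold above day 0. The step from day 2 to day 3 also passed the test (log2 fold change 0.66, SE 0.20, adjusted p = 0.0229), but it did not without replicate 2 (adjusted p = 0.147) or without replicate 3 (adjusted p = 0.165).

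Pax6 came up as early as Sox11 but did not hold its level. Its CPM were 0.190, 0.190 and 0.135 on day 0 (3 to 7 counts per library) and 4.23, 4.23 and 3.22 on day 1. All day 1 libraries lay far above all day 0 libraries. The change was 21.8-fold (log2 fold change 4.45, SE 0.46, adjusted p = 3.27e-07). On day 3 the libraries spread widely, at 6.70, 2.28 and 2.65 CPM. On day 4 they were at 1.30, 0.539 and 0.838 CPM, below every library of days 1 to 3. This left Pax6 5.0-fold above day 0 (log2 fold change 2.32, SE 0.52, adjusted p = 8.92e-04).

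Neurod1 rose more gradually and by the largest factor. Its 3 day 0 libraries held 3, 1 and 0 counts, which makes every fold against day 0 imprecise. The CPM were 1.05, 0.420 and 1.00 on day 1, 4.22, 5.10 and 6.18 on day 2, and 5.73, 7.45 and 7.22 on day 3. The libraries of day 2 all lay above those of day 1, and those of day 3 overlapped those of day 2. The log2 fold change against day 0 was 4.02 (SE 0.59, adjusted p = 1.88e-05) on day 1 and 7.07 (SE 0.48, adjusted p = 5.98e-10) on day 3. The step from day 1 to day 2 was 6.34-fold (adjusted p = 1.86e-06). Neurod1 and Zic1 were the 2 of 6 members that changed between those days, against a background of 39.3%.

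Zic1, at low counts throughout, came up on day 2. Its libraries held 1, 6 and 2 counts on day 0, 4, 3 and 0 on day 1, and 19, 21 and 16 on day 2. From day 2 on, every library had more CPM than any library of days 0 and 1. The log2 fold change against day 0 was 2.39 (SE 0.55, adjusted p = 0.00113) on day 2 and 3.30 (SE 0.51, adjusted p = 2.14e-05) on day 4, where the level was 1.09 ± 0.0675 CPM.

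Nes moved down first and up later. Its CPM were 41.8, 41.3 and 32.9 on day 0, 23.7, 22.0 and 22.8 on day 1, and 24.7, 29.2 and 23.6 on day 2. The day 1 and day 2 libraries were all below the day 0 libraries (log2 fold changes -0.76 and -0.58, adjusted p = 5.12e-05 and 4.89e-04). On day 3 the libraries rose to 112, 115 and 94.95 CPM, 4.15-fold above day 2 (log2 fold change 2.05, SE 0.12, adjusted p = 5.58e-09). Nes and Sox11 were the 2 members that changed between days 2 and 3, where the background was 26.7%. On day 4 Nes stood at 125 ± 11.2 CPM, and per kilobase of exon it was the highest of the 7 genes in TX1072 on every day, at 19.5 CPM per kb on day 4 against 6.55 for Sox11.

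Sox1 and Hes5 did not follow the other members. Sox1 was already present on day 0, at 1.33, 3.26 and 3.11 CPM, and its levels on days 1 and 2 lay within the range of the day 0 libraries (2.40 ± 0.625 and 2.42 ± 0.424 CPM). On day 3 it was at 4.01 ± 0.529 CPM (log2 fold change against day 0 of 0.67, SE 0.37, adjusted p = 0.140). The step of Sox1 from day 2 to day 3 did not pass, except under 3 of 9 alternatives. These were leaving out replicate 1 (0.93, adjusted p = 0.0441), fitting only the compared groups (0.72, adjusted p = 0.0162) and no filter (0.72, adjusted p = 0.0288). On day 4 it was at 0.477, 1.14 and 2.10 CPM, a range that overlaps day 0. The day 4 decrease against day 0 passed the test (log2 fold change -1.01, SE 0.40, adjusted p = 0.0356), but not without replicate 2 (-0.72, adjusted p = 0.261) or with only the 2 days compared in the fit (-0.99, adjusted p = 0.0907). Hes5 had 0 to 6 counts in each TX1072 library. With no filter its log2 fold change on day 1 against day 0 was -2.51 (adjusted p = 0.0722), and on day 4 it was -0.01 (adjusted p = 1). At 0.0184 ± 0.0162 CPM on day 1 and 0.129 ± 0.0710 CPM on day 4, it was not detectable above a handful of reads.

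**Figure D1:**
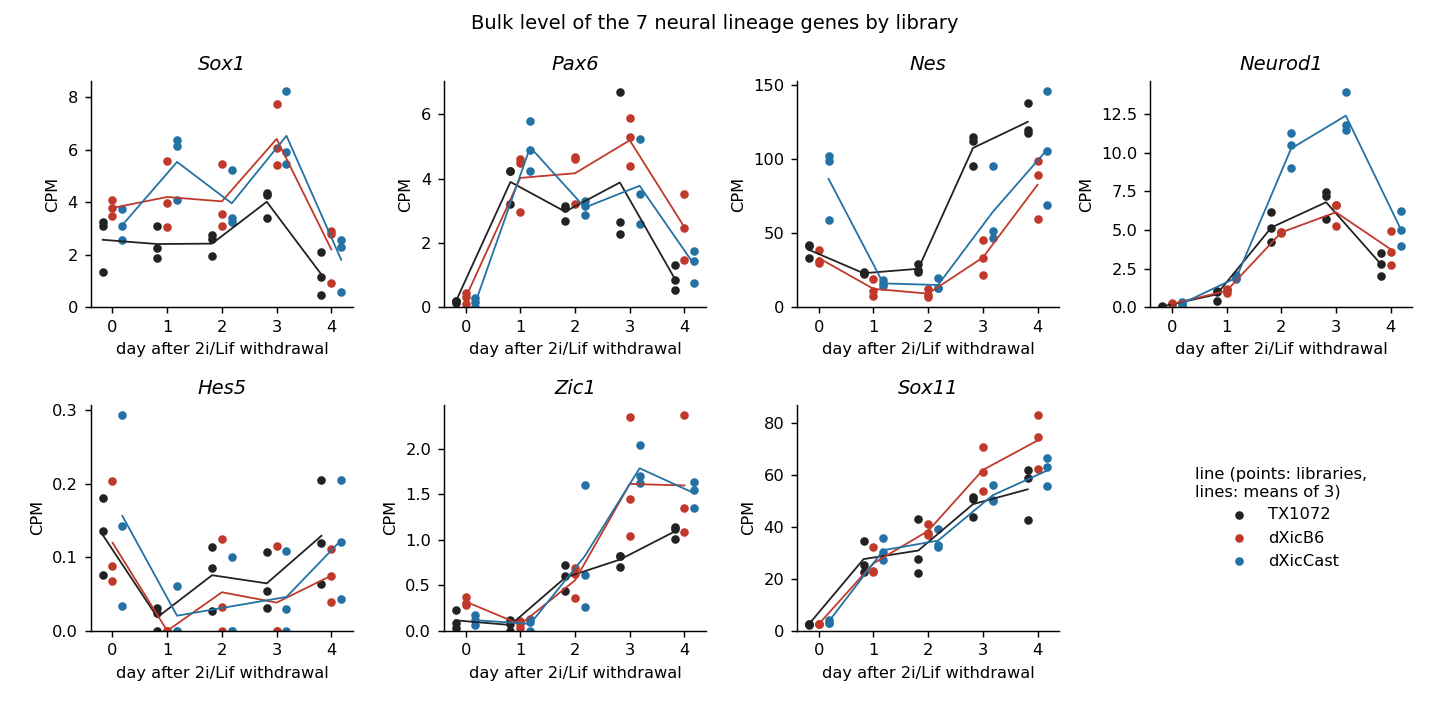
Bulk level of each of the 7 genes in CPM (y axis, linear, its own range per panel) against the day after 2i/Lif withdrawal (x axis) in TX1072 (black), dXicB6 (red) and dXicCast (blue); points are libraries and lines join the means of 3. Sox11 climbs from below 5 CPM on day 0 to above 40 CPM on day 4 in every library, Pax6, Neurod1 and Sox1 drop from day 3 to day 4, and Hes5 stays below 0.3 CPM.

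The second question was what happened between days 3 and 4. In TX1072, Pax6, Neurod1 and Sox1 fell and 0 members rose, with 27.8% of all genes tested changing in either direction. Pax6 fell by 2.14 on the log2 scale (SE 0.36, adjusted p = 2.93e-04), Sox1 fell by 1.68 (SE 0.39, adjusted p = 0.00378) and Neurod1 fell by 1.28 (SE 0.28, adjusted p = 0.00225), and for each the 3 libraries of day 4 lay below the 3 of day 3. Nes, Sox11 and Zic1 had log2 fold changes of 0.22, 0.16 and 0.47 (adjusted p = 0.184, 0.605 and 0.399). In dXicCast the same 3 genes fell, by 1.50 (Pax6, SE 0.35, adjusted p = 0.0026), 1.83 (Sox1, SE 0.37, adjusted p = 9.11e-04) and 1.28 (Neurod1, SE 0.19, adjusted p = 2.35e-05), where the background was 19%. In dXicB6 they fell by 1.06, 1.52 and 0.71 (adjusted p = 0.0252, 0.00437 and 0.00973), and Nes rose by 1.31 (SE 0.32, adjusted p = 0.00555), with a background of 15.9%. Without replicate 2, 0 of these 4 calls in dXicB6 remained, with adjusted p = 0.0943 for Sox1, 0.116 for Pax6, 0.0589 for Neurod1 and 0.139 for Nes. The log2 fold changes were then -1.61, -1.30, -0.93 and 1.00 in that order. Without replicate 1 the falls of Pax6 and Neurod1 had adjusted p = 0.118 and 0.124, at log2 fold changes of -1.06 and -0.64. Without replicate 3 the fall of Pax6 had adjusted p = 0.0536, at -0.92. With the replicate block, the rise of Nes in dXicCast passed as well (0.84, adjusted p = 0.0219, against 0.73 and adjusted p = 0.116 without it), as it did without replicate 3 (1.36, adjusted p = 0.00181). The comparisons within the deletion lines were added after the TX1072 values were seen.

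Markers of other lineages moved in those same libraries. In TX1072, 9 of 11 mesendoderm genes tested rose from day 3 to day 4 and 0 fell, with a median log2 fold change of 2.63 beside 0.00 for all genes. Their summed level went from 37.6 ± 11.04 to 312 ± 124 CPM, led on day 4 by T, the primitive streak factor, at 116 CPM. The neural crest and mesenchyme list went from 209 ± 32.7 to 578 ± 34.0 CPM, led by the smooth muscle gene Tagln, with 9 of 16 genes rising and 1 falling. The surface ectoderm list went from 838 ± 113 to 2111 ± 267 CPM, with 3 of 8 genes rising and 1 falling. Most of its day 4 level came from the keratin genes Krt8 and Krt18 (895 and 799 CPM). The endoderm list went from 261 ± 20.95 to 413 ± 31.9 CPM, most of it Sparc, with 6 of 11 genes rising and 1 falling. Of all genes tested, 27.8% changed. Among single TX1072 cells of day 4, Tagln had a UMI in 97.4%, Krt8 in 95.6% and T in 56.6%. Tagln and Krt8 thus did not mark a separate population of cells. The part of the cells with these markers in the fall of Pax6, Neurod1 and Sox1 was not tested. In bulk libraries, fewer cells with a transcript and less RNA per cell cannot be told apart.

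The share of cells was then read from the single-cell counts of TX1072, with 277, 325, 341, 257 and 272 retained cells on days 0, 1, 2, 3 and 4. There was 1 culture per day, so no test compares days, and intervals are exact 95% Clopper-Pearson intervals that cover counting error only. The row barcodes of the chip are reused in every capture column by design, and 0 pairs of cells held identical counts.

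Sox11 was the most widely detected member after day 0. A Sox11 UMI was found in 9.39% of cells on day 0 (6.22% to 13.5%), 65.2% on day 1 (59.8% to 70.4%), 66.3% on day 2, 71.6% on day 3 and 83.8% on day 4 (78.9% to 88.0%). The mean number of Sox11 UMIs per positive cell, not corrected for depth, also grew, from 7.81 on day 0 and 13.1 on day 1 to 34.0 on day 4. With each cell thinned to 40000 UMIs, which removes the deeper sequencing of day 4, the shares were 7.22%, 54.8%, 57.2%, 63.8% and 71.7%, in the same order. Summed over cells, Sox11 went from 5.19 to 67.2 UMI CPM (UMIs scaled to 1000000) on day 1 and 171 on day 4, which is 13.0-fold and 32.9-fold above day 0.

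Nes was found in 46.9% of cells on day 0, 32.6% on day 1 and 26.7% on day 2, and then in 58.0% on day 3 and 67.3% on day 4. The intervals of day 0 (40.9% to 53.0%) and day 2 (22.1% to 31.7%) did not overlap, nor did those of day 2 and day 3 (51.7% to 64.1%). The same fall and rise was therefore seen in the share of cells as in the bulk level. The single cells and bulk replicate 1 came from the same cell population, so these are not independent cultures.

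Pax6 and Neurod1 were found in a minority of cells on every day. Pax6 was present in 1.44% of cells on day 0 (0.395% to 3.66%), 12% on day 1, 19.4% on day 2 (15.3% to 24.0%), 16.3% on day 3 and 4.04% on day 4 (2.04% to 7.12%). Neurod1 was present in 0 of 277 cells on day 0. A limit of 3 cells there allows a share of cells with a UMI of up to 1.08%, which does not limit the share expressing the gene. It was then found in 2.77%, 13.2% (9.79% to 17.3%), 12.8% and 4.78% (2.57% to 8.03%) of cells on days 1 to 4. Both shares were lower on day 4 than on day 3 by more than their intervals, in spite of the highest median depth on day 4. Without thinning, the mean number of Neurod1 UMIs per positive cell was 5.67 on day 1, 9.89 on day 2, 8.27 on day 3 and 12 on day 4. The median depth was 130377 UMIs on day 3 and 171158 on day 4, and these means are not corrected for it. On day 4 the positive cells were 13, and 1 of them held 28.2% of the Neurod1 UMIs.

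Sox1 was found in 5.05%, 7.08%, 6.75% and 7.00% of cells on days 0 to 3, with overlapping intervals, and in 1.10% on day 4 (0.228% to 3.19%), that is in 3 of 272 cells. Bulk replicate 1, from the same cell population, was the lowest of 3 for Sox1 on day 4 (0.477 CPM against 1.14 and 2.10). The Sox1 UMIs of the single cells were concentrated, and on day 3 a single cell held 35.6% of them. Zic1 reached at most 2.33% of cells (0.861% to 5.01%, day 3), and 1 cell held 69.2% of the 52 Zic1 UMIs of day 2. The cells of day 3 held 38 Zic1 UMIs and those of day 4 held 9, whereas the bulk level of Zic1 in TX1072 was highest on day 4. Hes5 was found in 2, 0, 0, 1 and 5 cells on days 0 to 4. Because transcripts of a gene cluster in few cells, an interval on the summed UMIs of these genes understates their error.

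**Figure D2:**
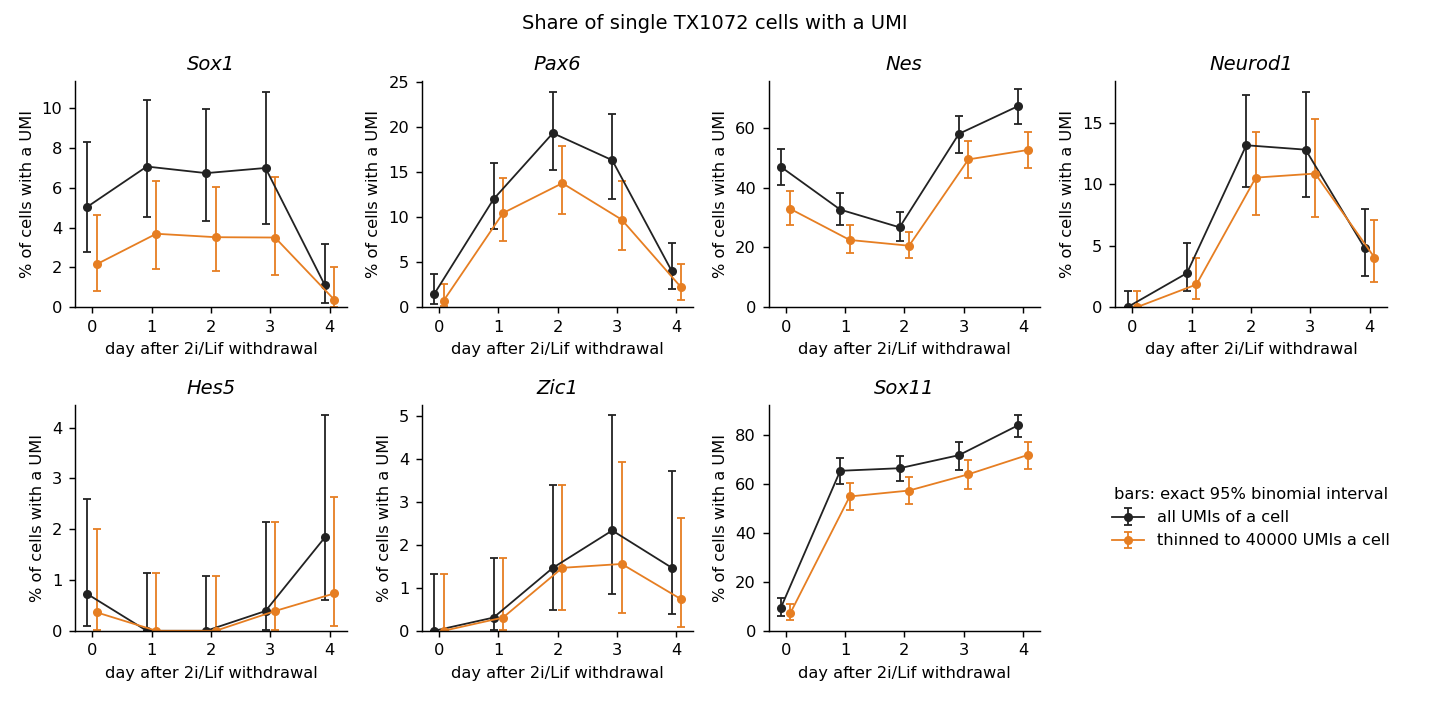
Share of retained TX1072 cells with at least 1 UMI of each gene (y axis, percent, its own range per panel) against the day after 2i/Lif withdrawal (x axis), with all UMIs (black) and after thinning each cell to 40000 UMIs (orange); bars are exact 95% binomial intervals. Sox11 goes from 9.39% to 83.8%, Nes dips to 26.7% on day 2, Pax6 and Neurod1 are highest on days 2 and 3, and Sox1 is at 1.10% on day 4.

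Cells with UMIs of 2 or more of the 7 genes made up 8.30% of cells on day 0, 32.3% on day 1, 39.9% on day 2, 56.0% on day 3 and 62.1% on day 4 (56.1% to 67.9%). After thinning these shares were 2.17%, 21.5%, 27.3%, 45.5% and 44.1%. Cells with a UMI of any of the 5 members other than Sox11 and Nes went from 7.22% through 21.2%, 35.2% and 32.3% to 11.8%, and cells with 2 of those 5 were at most 5.84% (day 3). In thinned cells of day 2, Pax6 and Neurod1 were together in 3 cells, where the product of their shares gives 4.96 cells, and Nes and Neurod1 were together in 3 cells against 7.39. On day 3 Pax6 and Neurod1 were together in 3 cells against 2.72. Sox1 and Sox11 were together in 11 cells of day 2 against 6.86, on 12 Sox1-positive cells.

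Set beside markers of other states in the same thinned cells, Sox11 was more frequent in Fgf5-positive cells, Fgf5 being a gene of the formative epiblast. On day 3 it was found in 73.7% of 167 Fgf5-positive cells (66.3% to 80.2%) and in 45.6% of the 90 others (35.0% to 56.4%). Neurod1 was found in 14.4% and 4.44% of these cells, with intervals that overlap (9.43% to 20.6% and 1.22% to 11%). On day 4 Sox11 was found in 86.7% of 113 T-positive cells (79.1% to 92.4%) and in 61.0% of the 159 others (53.0% to 68.6%). Nes on day 3 was found in 64.9% of 154 Tagln-positive cells (56.8% to 72.4%) and in 26.2% of the 103 others (18.04% to 35.8%). These are a selection of the splits made, and others went the other way. On day 3 Sox11 was found in 55.8% of 120 Krt8-positive cells and in 70.8% of the 137 others, with intervals that overlap. Pax6 on day 3 was found in 15% of 140 Nanog-positive cells (9.53% to 22.0%) and in 3.42% of the 117 others (0.939% to 8.52%). Cells of 1 culture are not replicates, and no test was made of these differences. In the thinned cells the share with a T UMI was 0.293% on day 2 and 41.5% on day 4, and that with a Tagln UMI was 4.69% and 92.6%. With all UMIs these shares were 0.587% and 56.6% for T and 7.92% and 97.4% for Tagln.

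In the deletion lines the order of events was close to that of TX1072, apart from Nes on day 3. TX1072 was prepared with another kit and sequencer and is therefore given side by side without a test. Against day 0, Nes on day 3 had a log2 fold change of 1.47 in TX1072 and of 0.01 in dXicB6. In dXicCast it ranged from -0.70 to -0.16 over the alternatives, against the degraded day 0 libraries. It passed there as a decrease in 2 of 9 alternatives, without replicate 3 (adjusted p = 0.0277) and with no filter on low counts (adjusted p = 0.00191). In dXicB6, 5 of the 6 tested members changed on day 1 (background 45.8%), 4 on day 2 (background 55.9%), 4 on day 3 (background 57.8%) and 5 on day 4 (background 59.5%). Sox11, Pax6 and Neurod1 rose on all 4 days. Nes fell on days 1 and 2 and rose on day 4, and Zic1 fell on day 1 and rose on days 3 and 4. In dXicCast the counts were 4 (background 58.7%), 5 (background 66.3%), 5 (background 68.5%) and 4 (background 69.6%). There, too, Sox11, Pax6 and Neurod1 rose on all 4 days, Nes fell on days 1 and 2, Zic1 rose on days 2 to 4, and Sox1 rose on day 3. Sox11 rose from 2.56 ± 0.191 to 25.9 ± 5.54 CPM on day 1 in dXicB6 and from 3.46 ± 0.633 to 31.0 ± 4.33 CPM in dXicCast, 10.1-fold and 8.78-fold, and reached 73.2 ± 10.4 and 61.7 ± 5.38 CPM on day 4. Pax6 rose on day 1 by 3.84 (dXicB6, SE 0.44, adjusted p = 4.44e-08) and 4.89 (dXicCast, SE 0.46, adjusted p = 8.69e-10) on the log2 scale. In all 3 lines, Sox11, Pax6 and Neurod1 were up on day 1.

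For Zic1 and Nes, the days on which the test was passed were not the same in both deletion lines. In dXicB6, Zic1 had 7, 11 and 7 counts on day 0 and 2, 3 and 1 on day 1, a decrease (log2 fold change -2.17, SE 0.75, adjusted p = 0.0189) that did not pass without replicate 1 (adjusted p = 0.119). It passed upwards on day 3 in this line (2.34, SE 0.48, adjusted p = 1.31e-04), with 0.78 and adjusted p = 0.215 on day 2. In dXicCast it passed on day 2 (2.70, SE 0.57, adjusted p = 1.70e-04), and the difference between the lines in this change was 1.92 (SE 0.80, adjusted p = 0.147), so the later onset in dXicB6 is not shown to differ. Nes fell to 9.09 ± 2.72 CPM on day 2 in dXicB6 and to 14.9 ± 3.98 CPM in dXicCast, and stood at 82.5 ± 20.5 and 106 ± 38.5 CPM on day 4. In dXicB6 the day 4 level was above day 0 (1.32, SE 0.32, adjusted p = 9.73e-04), and in dXicCast it had a log2 fold change of 0.30 (SE 0.32, adjusted p = 0.409) against the degraded day 0 libraries. The latter ranged from -0.22 to 0.65 over the alternatives and passed without replicate 3 (adjusted p = 0.036). The difference between the lines in this change did not pass (-1.02, SE 0.45, adjusted p = 0.131). The decrease of Nes on day 1 in dXicB6 (-1.42, adjusted p = 9.53e-04) had adjusted p = 0.0566 without replicate 1.

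Sox1 rose on day 3 in dXicCast (1.04, SE 0.36, adjusted p = 0.0132), where its libraries were at 5.45, 8.23 and 5.91 CPM against 3.10, 2.54 and 3.74 on day 0, but not without replicate 2 (0.72, adjusted p = 0.215). In dXicB6 the day 3 libraries, at 6.08, 7.72 and 5.43 CPM, also lay above the day 0 libraries (0.77, SE 0.36, adjusted p = 0.0669). With the replicate number as a block, 4 more changes of Sox1 passed the test, on day 3 (0.76, adjusted p = 0.0408) and day 4 (-0.79, adjusted p = 0.0429) in dXicB6, and on day 1 (0.74, adjusted p = 0.0470) and day 4 (-0.88, adjusted p = 0.0242) in dXicCast. All 4 also passed with no filter on low counts (adjusted p = 0.00229 and 0.00701 in dXicB6, 0.00241 and 0.00287 in dXicCast). The dXicB6 day 4 change passed under these 2 settings alone, out of 10 alternatives. With DESeq2 the changes of dXicB6 on day 3 and of dXicCast on days 1 and 4 had adjusted p = 0.0468, 0.0411 and 0.0486. Without replicate 3 and with only the compared groups in the fit, the dXicB6 day 3 change (adjusted p = 0.0070 and 0.00583) and the dXicCast day 1 change (adjusted p = 8.05e-04 and 0.00766) passed as well, as did the latter with TMM factors from all genes (adjusted p = 0.0475). Over the alternatives, the day 4 change ranged from -0.99 to -0.48 in dXicB6 (adjusted p up to 0.165). In dXicCast it ranged from -1.21 to -0.18 (adjusted p up to 0.569) and was called in 3 of 9. The day 4 libraries of replicates 1, 2 and 3 were at 2.77, 2.90 and 0.929 CPM in dXicB6. They were at 2.57, 2.27 and 0.576 CPM in dXicCast, so replicate 3 was the lowest in both lines. Hes5 had 0 to 11 counts per library in these lines, and 0 counts in all 3 dXicB6 libraries of day 1. With no filter its decrease on that day passed (adjusted p = 0.0139), on a day 0 total of 9 counts.

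The line difference was tested day by day as dXicCast against dXicB6, which compares 1 clone with 1 other. After day 0, Neurod1 was the member called, on days 2 and 3. On day 2 its libraries were at 9.04, 11.3 and 10.5 CPM in dXicCast and at 4.82, 4.85 and 4.85 CPM in dXicB6, and on day 3 at 11.47, 13.96 and 11.8 CPM against 6.62, 6.59 and 5.24 CPM. The lines did not overlap on either day, nor on day 1 (1.87, 1.80 and 2.06 against 1.15, 1.10 and 0.905 CPM). The difference was 2.12-fold on day 2 (log2 fold change 1.08, SE 0.19, adjusted p = 0.00375) and 2.00-fold on day 3 (1.00, SE 0.19, adjusted p = 0.00423). On day 1 it was 0.86 (SE 0.23, adjusted p = 0.124) and on day 4 it was 0.44 (95% interval 0.05 to 0.83, adjusted p = 0.198). Neurod1 was the 1 member called on day 2, where 0.372% of all 19885 genes tested were called, and the 1 member called on day 3, where 1.30% were. The size held when replicates were left out, at 1.00 to 1.17 on day 2 and 0.94 to 1.12 on day 3, but the call did not, with adjusted p = 0.0749 without replicate 1 and 0.532 without replicate 2 on day 2, and 0.0622, 0.193 and 0.0688 without replicates 1, 2 and 3 on day 3. For the change of Neurod1 from day 0, the difference between the lines did not pass the test, at 1.19 on day 2 (SE 0.47, adjusted p = 0.136) and 1.11 on day 3 (SE 0.47, adjusted p = 0.165).

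Nes was higher in dXicCast on day 0 (1.39, SE 0.33, adjusted p = 0.00328), at 102, 59.0 and 98.4 CPM against 38.7, 29.5 and 31.1 CPM, and this comparison rests on the degraded libraries, in which 19.7% of all genes were called. It was the 1 member called on day 0 without the replicate block. With the block Sox11 was called there too (0.44, adjusted p = 0.0218, against 0.46 and 0.0709). Nes was also the second member at an unadjusted p below 0.05 on days 2 and 3, beside Neurod1. On day 2 its libraries were at 12.6, 12.57 and 19.5 CPM in dXicCast and at 6.90, 8.22 and 12.1 CPM in dXicB6, and on day 3 at 51.05, 46.5 and 94.8 CPM against 33.3, 21.5 and 45.4 CPM. The lines did not overlap on either day, but the differences of 0.71 (SE 0.34) and 0.95 (SE 0.32) did not pass after adjustment (adjusted p = 0.770 and 0.183). They ranged from 0.66 to 0.73 and from 0.84 to 1.10 over the alternatives and passed with no filter on low counts (adjusted p = 2.30e-04 and 3.60e-09). On day 1, 0 members were called by edgeR (background 0.402%), with 1, Neurod1, at an unadjusted p below 0.05 and 0 by DESeq2. On day 4, 0 were called by edgeR (background 5.82%), with 2, Pax6 and Neurod1, at an unadjusted p below 0.05 and 0 by DESeq2. There Pax6 was at 1.75, 1.44 and 0.758 CPM in dXicCast and at 2.47, 3.51 and 1.47 CPM in dXicB6, ranges that overlap (-0.91, SE 0.35, adjusted p = 0.132), and it was called with the block (-0.91, adjusted p = 0.0435). For Sox1 the day 3 difference was 0.01 with a 95% interval of -0.71 to 0.72, which leaves room for a change of up to about that size in either direction.

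**Figure D3:**
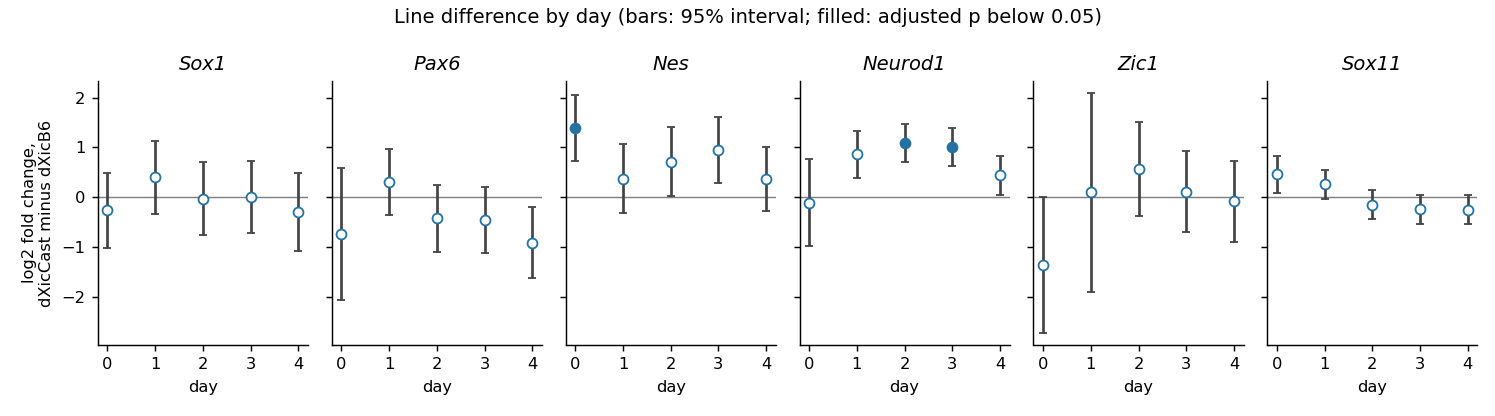
Log2 fold change of dXicCast against dXicB6 (y axis) at each day (x axis) for the 6 genes that passed the filter; bars are 95% intervals not adjusted for multiple tests, and filled points have an adjusted p below 0.05. Neurod1 on days 2 and 3 and Nes on day 0 are filled.

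The change from day 0 was also compared between the lines. For Sox11 it was smaller in dXicCast, with a log2 difference of -0.71 on day 3 (SE 0.23, adjusted p = 0.0491) and of -0.71 on day 4 (SE 0.23, adjusted p = 0.0334), making it the 1 member called on each of these days (backgrounds 8.92% and 15.0%). The day 0 level of Sox11 was higher in dXicCast (3.10, 3.08 and 4.19 CPM against 2.45, 2.46 and 2.78), in the degraded libraries, so the part of these libraries in the result was not tested. The line difference of Sox11 on days 3 and 4 themselves was -0.24 and -0.25 (adjusted p = 0.597 and 0.341). Leaving out any replicate gave adjusted p of 0.114 to 0.378 on day 3 and 0.0746 to 0.201 on day 4. The log2 difference was then -0.85 to -0.51 on day 3 and -0.80 to -0.60 on day 4. On day 1, 0 members were called by edgeR (background 4.57%), with 1, Nes, at an unadjusted p below 0.05 and 0 by DESeq2. On day 2, 0 were called (background 6.29%), with 3, Neurod1, Zic1 and Sox11, at an unadjusted p below 0.05 and 0 by DESeq2, and with the block Sox11 was called (-0.60, adjusted p = 0.0240). The blocked comparisons between the lines assume that libraries of the same number in both lines were differentiated together, which the sources used here do not state.

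Reads that cover a B6 or Cast variant gave a second readout, the B6 share of allele-assigned counts, which could be read in libraries with at least 10 such counts. It is given as a description, and no test was made of it. Neurod1 has 0 variants in its exons, and for Hes5 and Zic1 no group had enough counts in all 3 libraries. Zic1 reached 10 assigned counts in 5 single libraries of days 3 and 4 in the deletion lines, at 45.5%, 50%, 47.4%, 52.4% and 72.7%. The autosomal B6 share of the libraries was 50.6% to 51.4%, as the background.

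The B6 share of Sox1 was lower on day 3 than on day 0 in all 3 lines. In TX1072 it was 68.7% ± 12.03 on day 0, 56.3% ± 5.01 on day 1, 45.9% ± 11.6 on day 2 and 38.7% ± 9.88 on day 3 (SD, n = 3). In dXicB6 it was 72.2% ± 6.39 on day 0, 46.3% ± 4.96 on day 3 and 37.2% ± 3.57 on day 4, and in dXicCast 66.8% ± 13.2, 46.6% ± 4.46 and 33.9% ± 15.1. In each line the 3 libraries of day 0 lay above the 3 of day 3. The libraries held 11 to 79 assigned Sox1 counts on day 0 and 25 to 231 on day 3, so that single values are imprecise. Nes stayed between 51.0% and 59.2% in the means of all groups, at 51 to 3751 assigned counts. Sox11 had group means of 47.4% to 55.7% from day 1 on. On day 0 the one group of Sox11 with enough counts in all 3 libraries was dXicCast, at 76.8% ± 0.847 on 17 to 54 counts, in the degraded libraries. Single libraries with enough counts were at 63.6% and 70.6% in dXicB6 (22 and 17 counts) and at 46.7% and 76.9% in TX1072 (15 and 13 counts). Pax6 had enough counts in 7 groups, at 12 to 83 assigned counts per library. In dXicCast its B6 share was 73.4% ± 7.01 on day 1, 64.7% ± 15.95 on day 2 and 40.9% ± 15.88 on day 3, and the 3 libraries of day 1 lay above the 3 of day 3. In dXicB6 it was 68.2% ± 11.84, 75.4% ± 7.80 and 57.2% ± 5.23 on these days, with overlap between days 1 and 3, and in TX1072 it was 73.8% ± 12.56 on day 1. Within each replicate number of dXicB6 the share was lower on day 3 (63.1%, 53.0% and 55.6%) than on day 1 (70.8%, 55.3% and 78.6%).

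**Figure D4:**
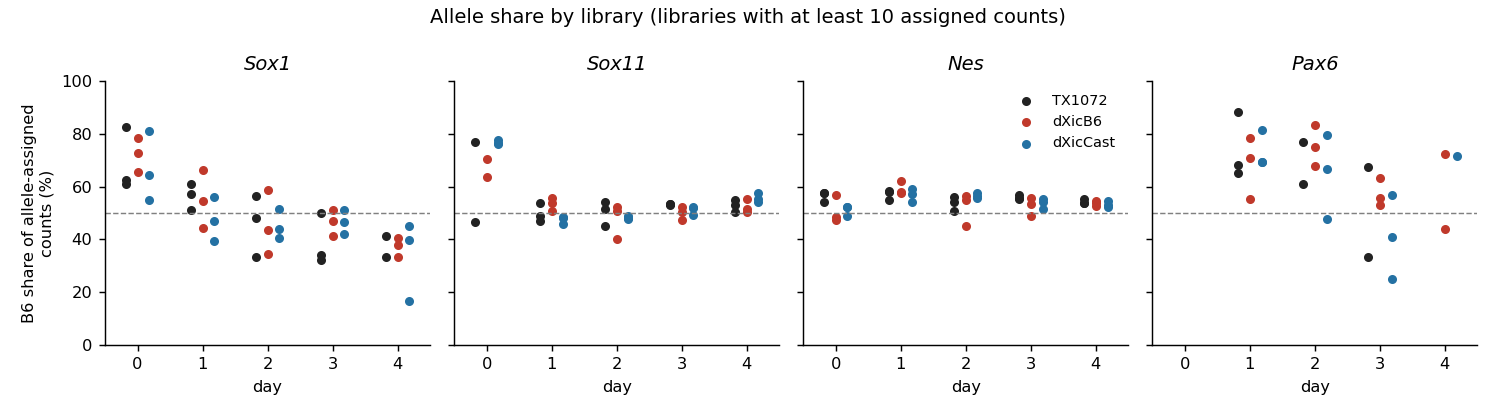
B6 share of allele-assigned counts in percent (y axis) by day (x axis) for Sox1, Sox11, Nes and Pax6, with a point for each library with at least 10 assigned counts in TX1072 (black), dXicB6 (red) and dXicCast (blue); the dashed line marks an equal share of both alleles. Sox1 goes from group means of 66.8% to 72.2% on day 0 to 38.7% to 46.6% on day 3, whereas Sox11 and Nes stay near the dashed line from day 1 on.

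Other genes of neural development, from lists of 42 neural induction, 37 proneural and neuronal and 32 Notch pathway genes, moved in both directions in TX1072 between days 0 and 4. Of the neural induction genes tested, 14 of 29 rose and 11 fell, with a median log2 fold change of 0.47 beside -0.04 for all genes. Among all 18871 genes tested 5667 rose and 5596 fell, 59.7% in all, and this background applies to all lists of TX1072 here. Prom1, which encodes the membrane protein prominin, rose from 3.64 ± 0.992 to 133 ± 13.8 CPM (5.17, SE 0.21, adjusted p = 5.26e-13), and Cyp26a1, an enzyme that degrades retinoic acid, rose from 0.00903 ± 0.0156 to 13.7 ± 11.7 CPM (adjusted p = 8.72e-09), with a spread between day 4 libraries nearly as large as their mean. Hesx1, a homeobox factor of the anterior neural plate, and Meis2, a TALE homeobox factor, fell by 4.69 and 4.34 on the log2 scale. The deletion lines gave 15 higher and 15 lower of 41 in dXicB6 and 17 higher and 14 lower in dXicCast, beside backgrounds of 59.5% and 69.6%.

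Of the proneural and neuronal genes, 11 of 26 rose and 7 fell (median 0.64), a number near the background. Gap43, a growth cone protein, rose from 0.240 ± 0.143 to 18.4 ± 0.280 CPM (6.33, SE 0.25, adjusted p = 3.21e-13), and Lhx1, a LIM homeobox factor also used in mesoderm, rose with widely spread libraries (2.00 ± 2.46 CPM on day 4, adjusted p = 1.30e-04). Mapt, which encodes tau, fell from 88.2 ± 10.2 to 6.58 ± 2.06 CPM (-3.74, SE 0.18, adjusted p = 6.70e-12), and Ebf1, a transcription factor of neurons and B cells, fell by 3.24. Of the Notch pathway genes, 18 of 29 rose and 7 fell (median 0.87). The coactivator Maml3 and the ligand Dll3 rose by 5.02 and 4.07 on the log2 scale, whereas the receptor Notch4 and the glycosyltransferase Mfng fell by 3.57 and 2.53, while the effector Hes5 stayed at 0 to 6 counts. In both deletion lines each of these named genes changed in the same direction as in TX1072, the highest adjusted p being 0.0114 for Lhx1 in dXicB6.

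For the other states, 14 of 14 naive pluripotency genes fell by day 4 (median -3.65), Klf4 and Prdm14 by 5.66 and 5.26. Of the formative and primed epiblast genes, 9 of 11 rose and 2 fell, with Fgf5 rising from 0.116 ± 0.0724 to 135 ± 4.97 CPM and Dusp6, a MAP kinase phosphatase, by 6.14 on the log2 scale, and with Foxd3 and Etv5 falling by 2.45 and 1.25. The pluripotency genes shared by both states gave 3 higher and 3 lower of 6. In the mesendoderm list 8 of 11 rose and 0 fell, led by the secreted factors Fgf8 (9.25, SE 0.75) and Wnt3 (7.38, SE 0.31). In the endoderm list 8 of 11 rose and 2 fell, with Foxa2 at 13.1 ± 13.7 CPM and Gata6 at 1.40 ± 1.30 CPM on day 4, both widely spread, and with Hnf4a falling by 7.50. In the neural crest and mesenchyme list 10 of 16 rose and 5 fell, Tagln from 0.0860 ± 0.0300 to 419 ± 20.8 CPM and the smooth muscle actin gene Acta2 from 0.0241 ± 0.0227 to 109 ± 22.4 CPM, and the collagen gene Col1a2 fell by 2.41. In the surface ectoderm list 5 of 8 rose and 2 fell, the keratins Krt8 and Krt18 rising by 8.34 and 8.13 and the transcription factors Grhl3 and Tfap2c falling by 1.07 and 0.87. Gata6 had a log2 fold change of -1.16 in dXicB6 (adjusted p = 0.117) and of 1.60 in dXicCast (adjusted p = 0.0117), and the other genes named here had the same direction in all 3 lines.

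**Figure D5:**
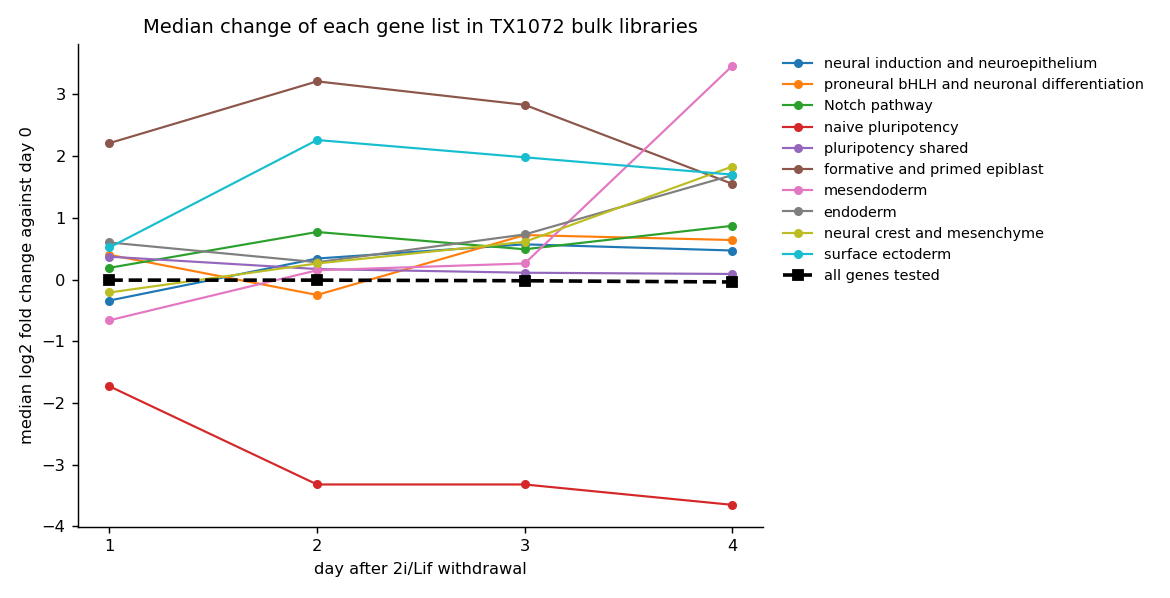
Median log2 fold change against day 0 (y axis) on days 1 to 4 (x axis) of the genes tested in each of 10 lists in TX1072 bulk libraries; the black dashed line is the median of all genes tested. The 3 lists of neural genes stay between -0.34 and 0.87, the naive list falls to -3.65, and the mesendoderm list goes from 0.26 on day 3 to 3.46 on day 4.

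The genes whose levels followed each member most closely over the 15 TX1072 libraries were looked for among 13263 genes, by Pearson correlation of log2 CPM with a pseudocount of 0.5. The libraries share days, so every gene that changes steadily with time correlates with others, and r is a description. Neurod1 was followed by Dnah10 (r = 0.991), Meioc (0.988) and Ptchd1 (0.983), and over the 30 libraries of the deletion lines r was 0.588, 0.959 and 0.953. Sox11 was followed by Mapk4 (0.990), Trib2 (0.989) and Tchh (0.985), with 0.988, 0.983 and 0.477 in the deletion lines. For Pax6 these genes were Pde7a (0.951), Id1 (0.932) and Uchl1 (0.931), and for Zic1 they were Gm39090 (0.980), Lrfn4 (0.980) and Slco3a1 (0.975), all of which kept r of at least 0.850 in the deletion lines. For Nes they were Pcgf5 (0.978), Gyg (0.972) and Chrnb1 (0.964), with 0.632, 0.557 and 0.759 in the deletion lines. For Sox1 they were Ppp1r8 (0.798), Klf13 (0.789) and Ptprg (0.772), with 0.566, 0.435 and 0.774. Among the members themselves, Neurod1 and Sox11 had r = 0.81 in TX1072 and 0.83 in the deletion lines, Pax6 and Sox11 had 0.68 and 0.77, and Sox1 and Sox11 had -0.09 and -0.01.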

How the data were processed

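Bulk RNA-seq of 3 TX1072 or deletion-line replicates per day and C1-HT single-cell RNA-seq of TX1072 were analysed from the deposited tables. The authors aligned reads with STAR 2.5.2b to GRCm38 (mm10) and deposited raw read counts per gene from featureCounts, and UMI counts per gene and capture site. Spliced, unspliced and B6 or Cast allele-assigned counts were also made by the authors, as was a deposited list of variants, which holds other values than counts. The names of retained cells came from the study's supplementary tables. ERCC spike-in rows, at 0% of bulk and 0.0370% to 0.672% of single-cell counts, were left out.

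Genes passing filterByExpr (minimum count 10, minimum total 15) were tested with edgeR 4.0.16 quasi-likelihood tests in R 4.3.3, two-sided, in 1 fit for the 15 TX1072 and 1 for the 30 deletion-line libraries, with TMM factors from autosomal genes and Benjamini-Hochberg adjustment over all genes tested (threshold 0.05). Alternatives were DESeq2 1.42.0, other scalings, no filter, fits to the compared groups alone, a replicate block and leaving out replicates. On simulated data, changes of 1 and 2 on the log2 scale were recovered in 87.0% and 100.0% of cases for TX1072 day 4 against day 0 (18357 genes, 4.59% of calls false), and in 86.0% and 99.0% for the line difference at day 4 (18984 genes, 7.04% of calls false, above the threshold). Single-cell values, with Python 3.11.15 and scipy 1.17.1, have no test. Thinning drew 40000 UMIs per cell, and 0 retained cells were shallower.

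Replicate numbers mark separate differentiations, per the study's methods, and were taken to pair libraries within a line. That they also pair libraries of the 2 deletion lines is not stated in the sources used here. Deviations from group means had a median r of 0.168 between same-numbered TX1072 libraries (19 of 30 pairs over 0.1) against -0.090 otherwise, and of 0.245 within the deletion lines (47 of 60) and 0.133 across them (43 of 75). Blocked values stand beside the results they change. 0 pairs of bulk libraries held identical counts.

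The members and the 10 other gene lists were chosen with earlier results of these data known. All members are described. From the other lists except the shared pluripotency genes, up to 2 genes with the largest increase and 2 with the largest decrease at day 4 in TX1072 are named, where they passed the test, had no overlap between the libraries and had a mean count of 10 or more, and for each member called at day 4 the 3 genes of mean count at least 50 with the highest correlation. Promoter sequences came from RefSeq.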

Additional observations from a re-analysis of the deposited data

Results flagged for a closer look

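The change of Sox11 from day 0 differed between the deletion lines on days 3 and 4, by -0.71 on the log2 scale on both days in edgeR's test of the interaction (adjusted p = 0.0491 and 0.0334). The comparison uses the degraded day 0 libraries of dXicCast, and its call rests on all 3 replicates, as given above.

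In 5 cases single-cell levels of a member had 1 capture column far from the others of its day, among 31 groups of columns examined. The rule assumes normally spread values. UMIs that cluster in few cells break this assumption, so the 5 cases cannot be set against a chance rate. Where all 2 UMIs of a day sat in 1 cell, as for Hes5 on day 3 and Zic1 on day 1, a flag was bound to follow. Sox1 on day 3 was at 19.8 UMI CPM in column 4, with the next column at 7.92. Sox1 on day 4 was at 0.608 in column 5, with the next at 0.224. Hes5 on day 3 was at 0.660 in column 2, with the other columns at 0, on 2 UMIs in all. Zic1 on day 1 was at 0.547 in column 9, with the other columns at 0, also on 2 UMIs. Zic1 on day 2 was at 11.1 in column 9, with the next at 1.65, and the single cell that held 69.2% of the Zic1 UMIs of that day bears on this value directly.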

How the results depend on the processing

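Of 1455 single member tests under alternatives, 1356 kept their direction and side of the threshold, 36 passed it in addition, 28 no longer did and 35 had the opposite sign. Of these 35, 0 were called with or without the alternative. Leaving out replicates gave log2 differences on both sides of 0 in TX1072 for Sox1 on day 1 (-0.25 to 0.14), on day 2 (-0.49 to 0.31) and on day 2 against day 1 (-0.24 to 0.37), for Zic1 on day 1 (-1.91 to 0.20) and for Pax6 on day 3 against day 2 (-0.24 to 0.67). It did so within the deletion lines for Sox1 in dXicB6 on day 2 (-0.16 to 0.29), Nes in dXicB6 on day 3 (-0.31 to 0.19) and Nes in dXicCast on day 4 (-0.22 to 0.65). In the line difference it did so for Neurod1 on day 0 (-0.39 to 0.12), for Zic1 on days 1 (-0.12 to 0.34), 2 (-0.48 to 1.10), 3 (-0.08 to 0.54) and 4 (-0.28 to 0.38), and for Sox1 on days 2 (-0.44 to 0.34) and 3 (-0.03 to 0.09). In the difference of the change it did so for Sox11 on day 1 (-0.33 to 0.03), for Pax6 on days 2 (-0.30 to 1.37), 3 (-0.54 to 1.37) and 4 (-0.96 to 1.05), and for Sox1 on day 4 (-0.34 to 0.30). The sign of values near 0 also turned for Sox1 in TX1072 on day 2 against day 1 (-0.01 with DESeq2, -0.01 with its size factors and -0.04 with no filter) and in the line difference on day 3 (-0.00 with TMM factors from all genes and -0.02 with no filter), and with the replicate block for Nes in dXicB6 on day 3 (-0.05) and Sox1 in the line difference on day 2 (0.03). The cause was not tested. The replicate block changed no call other than those given beside the results. With it the number of members called in the line difference was 2 on day 0 and 1 on day 4, and in the difference of the change from day 0 it was 1 on day 2. With no filter on low counts the line difference called 2 members on day 0, 2 on day 2, 2 on day 3 and 1 on day 4, and the difference of the change called 1 on day 1, 1 on day 2 and 2 on day 4; this setting tests more genes of low counts. With only the compared groups in the fit, 0 members were called in the line difference on day 3 and 0 in the difference of the change on days 3 and 4 (0 and 0), with fewer libraries behind the spread. Leaving out each replicate in turn gave 1 to 3 members for TX1072 day 3 against day 2, 3 to 5 for dXicB6 day 1, 0 to 3 for dXicB6 day 4 against day 3, 0 to 1 for the line difference on day 2, 0 to 0 on day 3, and 0 to 0 for the difference of the change on days 3 and 4. Leaving out the 3 degraded libraries, an alternative added after the data were seen, gave the same number of members called in every comparison that could still be made.

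The share of cells with 2 or more members was 2.17%, 21.5%, 27.3%, 45.5% and 44.1% on days 0 to 4 in thinned cells, and 4.33%, 24.6%, 27.9%, 47.9% and 48.5% with at least 2 UMIs asked of each gene, so the rise from day 3 to day 4 is not kept under thinning. With all capture sites it was 48.3% on day 3 and 53.5% on day 4. Counts under about 10 per library limit Hes5, Zic1 before day 2 and the day 0 levels of Neurod1 and Pax6, and no spliced counts were used for Sox1, Sox11 and Hes5.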
